A study of Mus musculus with 18 samples.

Results

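The BCL2 family decides whether a cell survives or enters mitochondrial apoptosis, and 10 of its genes were followed here: Bcl2, Bcl2l1, Mcl1, Bcl2l11, Bbc3, Pmaip1, Bid, Bad, Bax and Bak1. The rule used no measured value: they were found by exact gene symbol in both deposited tables, as 10 of 19509 distinct symbols (18329 in the acute table and 18953 in the survival table). Of these 10 genes, 9 were tested in the acute libraries and 10 in the survival libraries, since a gene needed a mean of at least 10 normalized counts. None of them passed the threshold of an adjusted p of 0.05 in any of the 5 comparisons.

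The measurements were RNA sequencing profiles of 18 leukemic spleen samples of C57BL/6 mice, taken from sublethally irradiated hosts that had received T-ALL (T-cell acute lymphoblastic leukemia) cells bearing a conditional Acly allele. KO libraries (10, genotype Acly deleted) came from mice given 3 mg of tamoxifen in corn oil, and WT libraries (8, controls) from mice given corn oil alone, so KO and WT also differed in tamoxifen. In the acute set (4 KO and 4 WT) the mice were treated when overtly leukemic and the spleens were taken after 48 h. In the survival set the treatment was given 48 h after the transplant and the spleens were taken at the humane endpoint, from 4 WT samples and from KO samples labelled first wave (3) and second wave (3). Every leukemia, WT included, carried the conditional allele. The labels do not define the waves, name the Cre driver or state whether replicates are separate animals, so the p-values cover only the spread among these samples, which may be technical. The RNA came from whole spleen after lysis of red cells, and in such bulk samples fewer cells of a type and less RNA per cell cannot be told apart.

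In the family, guardians such as BCL2, BCL-XL (from Bcl2l1) and MCL1 hold the killers in check at the mitochondrial outer membrane. BH3-only proteins, among them BIM (from Bcl2l11), PUMA (Bbc3), NOXA (Pmaip1), BID and BAD, sense stress or loss of growth factors and neutralise the guardians or activate the effectors. The effectors BAX and BAK form pores that release cytochrome c, which starts the caspase cascade. In developing T cells the guardians MCL1, BCL-XL and BCL2 take turns with maturation, and BIM removes thymocytes that fail selection.

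Acly, the targeted gene, was checked first. Its values were 793, 804, 717 and 619.6 normalized counts in KO acute replicates 1 to 4 against 1129 to 1422 in WT acute, 656 to 799.6 in the first wave, 505 to 655 in the second wave and 1486 to 1854 in WT survival. Acly was therefore lower in each KO library than in any WT library of its table. The exons that the deletion removes are not known here, so the KO counts may include transcripts of the deleted allele. Estimated depth ran from 6.12 to 12.7 M reads per library. The leukemia markers Rag1 and Tcf7 were abundant throughout, with Rag1 at 10604 normalized counts or more and Tcf7 at 7561 or more in every library. Tcf7 was still lower in every KO acute library (7561 to 12347) than in any WT acute library (18585 to 19381), and the acute ranges of Rag1 overlapped. KO acute replicates 1 and 2 stood apart by mitochondrially encoded genes (4.80% and 5.27% of the counts, against 2.35% and 2.70% in replicates 3 and 4 and 3.50% to 3.69% in WT). In the survival table the first principal component put WT replicates 1 and 2 at 78.6 and 67.2 and WT replicates 3 and 4 at -18.8 and 4.16. It put second-wave replicate 1 at -73.2, against -9.92 and -16.5 for the other second-wave libraries. Results are therefore also given without KO acute replicates 1 and 2, without WT survival replicates 1 and 2 or without second-wave replicate 1. The alternatives did not include leaving out KO acute replicates 3 and 4 together.

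Mcl1 and Bcl2l11 were by far the most abundant of the 10 transcripts in WT leukemia. Per kilobase of transcript, Mcl1 had 1394 ± 247 normalized counts in WT acute (SD, n = 4) and Bcl2l11 918 ± 135, and neither overlapped its next neighbour in that order. In WT survival Mcl1 had 2018 ± 260 per kilobase (SD, n = 4) and Bcl2l11 1919 ± 485, and these overlapped. Among all genes their mean level per kilobase lay at percentiles 98.3 and 97.0 in the acute table and 98.5 and 98.2 in the survival table. A guardian and its BH3-only antagonist thus both ranked among the most abundant genes.

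The other 8 genes formed a lower tier. In WT acute, Bid came next with 159 ± 25.2 per kilobase and did not overlap Bax, at 103 ± 23.5. From Bax down, Bcl2l1 (93.1 ± 18.4), Pmaip1 (64.9 ± 21.3), Bak1 (44.6 ± 16.1), Bcl2 (28.2 ± 7.99) and Bad (20.8 ± 7.67) each overlapped the neighbour in the order, and Bbc3 was lowest (2.90 ± 2.09) and overlapped none. In WT survival the order ran Bcl2l1 (136 ± 35.8), Bax (129 ± 14.1), Bid (121 ± 64.2), Pmaip1 (112 ± 45.7), Bak1 (70.4 ± 27.7), Bcl2 (35.4 ± 9.99), Bbc3 (18.9 ± 5.96) and Bad (13.8 ± 6.62), and every neighbour overlapped. The lengths were medians over annotated transcripts, so an isoform of another length would shift a level. The tables were normalized separately, and levels were not compared between them.

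Bcl2l1 and Bcl2l11 gave the smallest adjusted p of the family in the acute and in the survival libraries, and both lie on chromosome 2 of GRCm38 (Bcl2l1 from 152780668 to 152831728 on the minus strand, Bcl2l11 from 128126038 to 128162547 on the plus strand). Promoter windows, the 250 bases before an annotated start, were taken from RefSeq (GRCm38.p6), where 9 of the 10 genes had one. They were searched on both strands for the FOXO letters GTAAACA and the STAT letters TTCNNNGAA, since FOXO factors are known inducers of Bcl2l11 and STAT5 of Bcl2l1. The Bcl2l11 window below (chr2:128125788-128126037, plus strand) held the FOXO letters, shown in capitals, 227 bases before the start. The Bcl2l1 window (chr2:152831729-152831978, minus strand) held neither. Both genes have other annotated starts, whose windows held neither set of letters and are not printed. The windows named by position are printed 5′ to 3′ so that these starts of the pair can be compared.
Bcl2l11: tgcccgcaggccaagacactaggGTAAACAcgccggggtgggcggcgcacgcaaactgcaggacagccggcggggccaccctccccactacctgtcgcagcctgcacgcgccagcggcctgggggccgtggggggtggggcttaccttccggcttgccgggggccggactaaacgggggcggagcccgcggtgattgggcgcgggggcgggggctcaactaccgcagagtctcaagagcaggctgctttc
Bcl2l1: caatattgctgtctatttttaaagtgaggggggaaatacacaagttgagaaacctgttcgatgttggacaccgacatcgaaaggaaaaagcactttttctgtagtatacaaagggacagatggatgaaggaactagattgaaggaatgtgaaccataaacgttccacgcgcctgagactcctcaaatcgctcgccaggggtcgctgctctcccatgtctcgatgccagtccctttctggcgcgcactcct
Of 15 windows of the family, 2 held the FOXO letters (1 each of Bcl2l11 and Bbc3) and 0 the STAT letters, against 3.17% and 7.02% of 32851 windows of all genes. Such a match describes the letters only.

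The acute comparison asks what had changed in established leukemia 48 h after tamoxifen. Bcl2l1 had higher values in every KO library than in any WT library, and Bcl2 had a similar mean difference with overlap. Mcl1 and all 6 pro-apoptotic genes tested had log2 fold changes below 0, from -0.40 (Bcl2l11) to -0.02 (Bak1), each with an interval that includes 0. Of the 9 genes tested, 0 passed the threshold, where 12.6% of all 14184 genes tested did. Before adjustment 1 had a p under 0.05, against 28.1% of all genes. The groups did not overlap for 1 of the 9, against 19% of all genes (8.04% with KO higher, as here). The median log2 fold change of the 9 was -0.24, beside 0.03 over all genes.

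**Figure D1:**
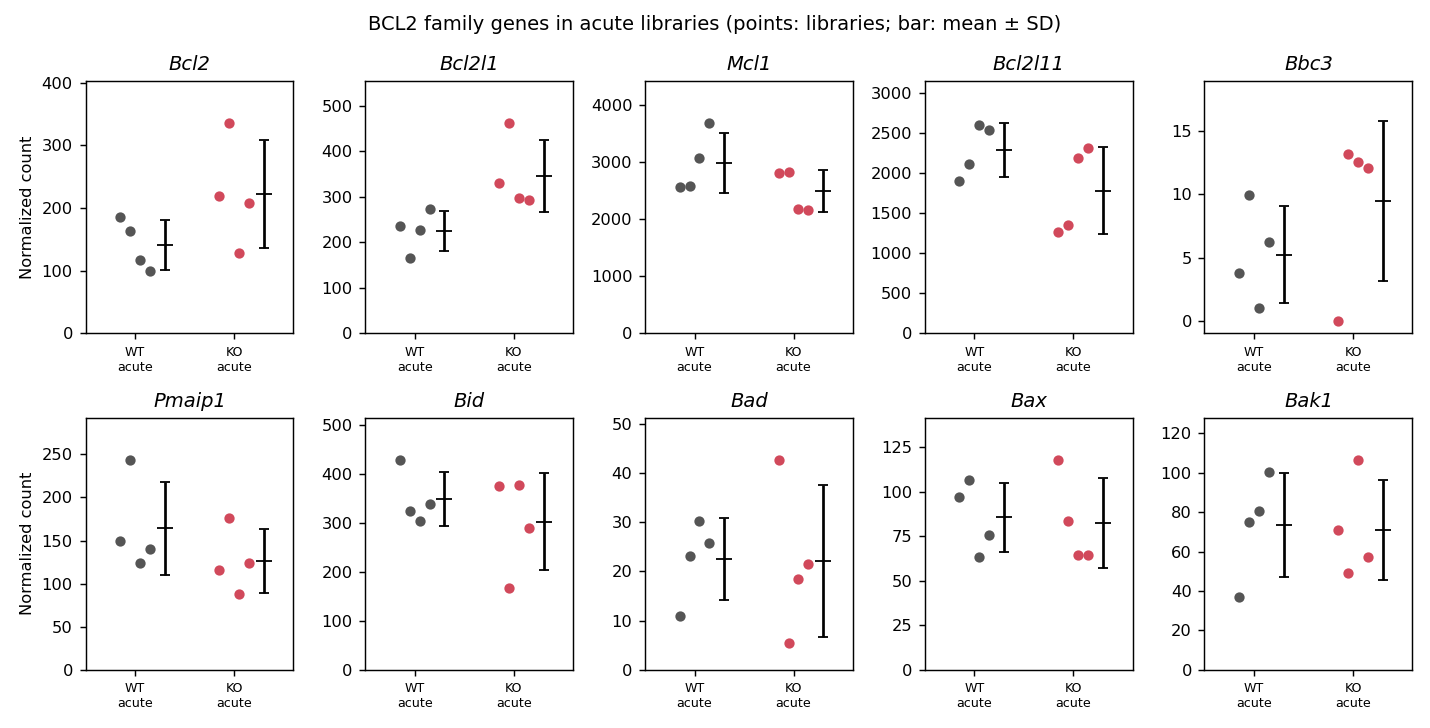
Normalized counts of the 10 BCL2 family genes in the acute libraries; each point is a library, in replicate order, and the bar beside it is the mean ± SD (n = 4 per group). Bcl2l1 is the gene whose KO points (293 to 462) all lie above the WT points (166 to 273), and Bcl2l11 shows KO replicates 1 and 2 below replicates 3 and 4.

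Among the guardians, Bcl2l1 encodes BCL-XL, which binds BIM, BAX and BAK. It had 331, 462, 296 and 293 normalized counts in KO acute replicates 1 to 4 and 236, 166, 226 and 273 in WT acute replicates 1 to 4. All 4 KO libraries were above all 4 WT libraries, and KO replicate 2 was the highest. The mean was 346 ± 79.4 in KO and 225 ± 44.4 in WT (SD, n = 4 each). The log2 fold change was 0.61 (SE 0.21, 95% interval 0.17 to 1.06, limma adjusted p = 0.0663), a 1.53-fold higher level on the log2(value + 1) scale. Over 18 alternatives in the processing it stayed between 0.41 and 0.71, with adjusted p from 0.0530 to 0.328. The lowest value, 0.41 (adjusted p = 0.328), was that without KO replicates 1 and 2.

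Bcl2, the founding guardian, had 219, 336, 127 and 208 normalized counts in KO replicates 1 to 4 and 186, 164, 117 and 99.4 in WT. KO replicate 3 lay within the WT range and the other 3 KO libraries above it. The log2 fold change was 0.61 (SE 0.29, 95% interval -0.02 to 1.24, adjusted p = 0.190), and it was 0.24 without KO replicates 1 and 2. Mcl1, whose short-lived protein is a BIM-binding guardian, had 2811, 2820.0, 2171 and 2165 in KO and 2570.05 to 3688 in WT. KO replicates 1 and 2 fell within the WT range, and replicates 3 and 4 were below it. Its log2 fold change was -0.25 (SE 0.14, 95% interval -0.56 to 0.05, adjusted p = 0.259), and without KO replicates 1 and 2 it was -0.44 (adjusted p = 0.0914).

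Among the BH3-only genes, Bcl2l11 encodes BIM, a binder of all guardians that kills lymphocytes deprived of cytokine. It had 1265 and 1348 normalized counts in KO replicates 1 and 2, 2188 and 2310.1 in replicates 3 and 4, and 1899, 2111, 2595 and 2537 in WT. The first pair was below every WT library and the second within the WT range. The log2 fold change was -0.40 (SE 0.19, 95% interval -0.81 to 0.01, adjusted p = 0.186), and without replicates 1 and 2 it was -0.012. The acute difference of Bcl2l11 was thus carried by 2 of the 4 KO libraries.

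Pmaip1, for NOXA, which targets MCL1, had 87.9 to 177 normalized counts in KO and 124 to 244 in WT, with a log2 fold change of -0.37 (SE 0.27, 95% interval -0.96 to 0.21, adjusted p = 0.395). Bid, for the protein that links death receptors to mitochondria, had 168 to 377 in KO and 305 to 429 in WT (log2 fold change -0.26, SE 0.24, 95% interval -0.78 to 0.25, adjusted p = 0.513). Its KO replicate 2 was the lowest, and without that library the value was -0.0038. Bad, a BH3-only protein held by 14-3-3 proteins when growth factors signal, had 5.44 to 42.7 in KO and 10.8 to 30.2 in WT (log2 fold change -0.24, SE 0.61, adjusted p = 0.836). The interval of Bad, from -1.54 to 1.06, was the widest of the 9 genes and covers large changes either way.

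Bbc3, for PUMA, the chief p53-induced BH3-only protein, was too low to be tested, at 13.2, 12.6 and 12.1 normalized counts in KO replicates 2 to 4, listed at 0 in KO replicate 1, and 1.04 to 9.98 in WT. Without the filter on low values its log2 fold change was 0.43 (SE 0.92, adjusted p = 0.830). The effectors had small differences with wide intervals. Bax had 118, 83.3, 64.5 and 64.6 normalized counts in KO and 63.5 to 106 in WT (log2 fold change -0.07, SE 0.29, 95% interval -0.69 to 0.55, adjusted p = 0.905). Bak1 had 49.1 to 107 in KO and 37.2 to 100.4 in WT (log2 fold change -0.02, SE 0.36, 95% interval -0.79 to 0.74, adjusted p = 0.973). These intervals do not show that the effector levels were alike in KO and WT.

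KO acute replicates 1 and 2 differed from replicates 3 and 4 in 5 of the 10 genes, with no overlap between the pairs, beside 39.9% of all genes tested. Replicates 1 and 2 had the higher Bcl2, Bcl2l1, Mcl1 and Bax and the lower Bcl2l11, at mean ratios of 1.66, 1.34, 1.30, 1.56 and 0.581. The same pair had the higher mitochondrial share and the smaller sum of the 14 T-ALL and thymocyte markers, 0.850% and 0.743% of the counts against 1.09% and 0.957% in replicates 3 and 4 and 1.07% to 1.26% in WT. Of those 14 markers 5 fell and 1 rose in KO, and none was listed at 0. The 15 neutrophil markers summed to 0.0571% and 0.0709% in the pair, 0.0328% and 0.0232% in replicates 3 and 4 and 0.0119% to 0.0239% in WT. Of them 2 of 14 tested rose, and at most 1 was listed at 0 in a library. The 12 erythroid markers, of a lineage known to express Bcl2l1, summed to 0.121% and 0.216% in the pair, 0.0794% and 0.0795% in the others and 0.137% to 0.227% in WT, and 2 of them fell. Tfrc, the most abundant of them, had 3063 to 4417 normalized counts in KO and 4620 to 6524 in WT. Hbb-bs overlapped (688 to 4368 and 1979 to 4703), so the share does not measure erythroid cells alone. B cell markers summed to 0.0157% to 0.0323% in KO and 0.0143% to 0.0254% in WT, and those of macrophages, plasma cells, NK cells and platelets also overlapped between KO and WT. Stroma and endothelium markers summed to 0.0198% to 0.0217% in KO and 0.0130% to 0.0155% in WT, and dendritic cell markers to 0.00281% to 0.00327% and 0.00215% to 0.00269%, both higher in every KO library. The 2 most abundant stroma and endothelium markers did not move alike. Pecam1 had 855 to 1010 normalized counts in KO and 567 to 684 in WT, whereas Pdgfrb overlapped (310 to 465 and 331 to 423). Of the markers tested in these 7 lists 1 rose, of stroma and endothelium, and 0 fell. The part of these shares in the values of the family was not tested.

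The survival comparisons ask how the leukemias of KO mice that reached the endpoint compared with WT leukemias. In the second wave Bcl2l1 and Bcl2l11 had lower values in every KO library than in any WT library, and in the first wave Bbc3 did. Of the 10 genes 0 passed the threshold in the first wave, where 0% of all 14286 genes did, and 0 in the second wave, where 0.224% did. The targeted gene Acly itself did not pass in the first wave (log2 fold change -1.22, limma adjusted p = 0.0562). It passed in the second (-1.56, adjusted p = 0.00155). Before adjustment 1 of 10 had a p under 0.05 in the first wave (8.02% of all genes) and 3 of 10 in the second (13% of all genes). The groups did not overlap for 1 of 10 in the first wave (8% of all genes, 3.6% with KO lower, as here) and for 2 of 10 in the second (9.66% of all genes, 4.62% with KO lower, as here). The median log2 fold change of the 10 was -0.10 in the first wave and -0.20 in the second, beside 0.01 and -0.01 over all genes. The waves share their WT libraries.

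**Figure D2:**
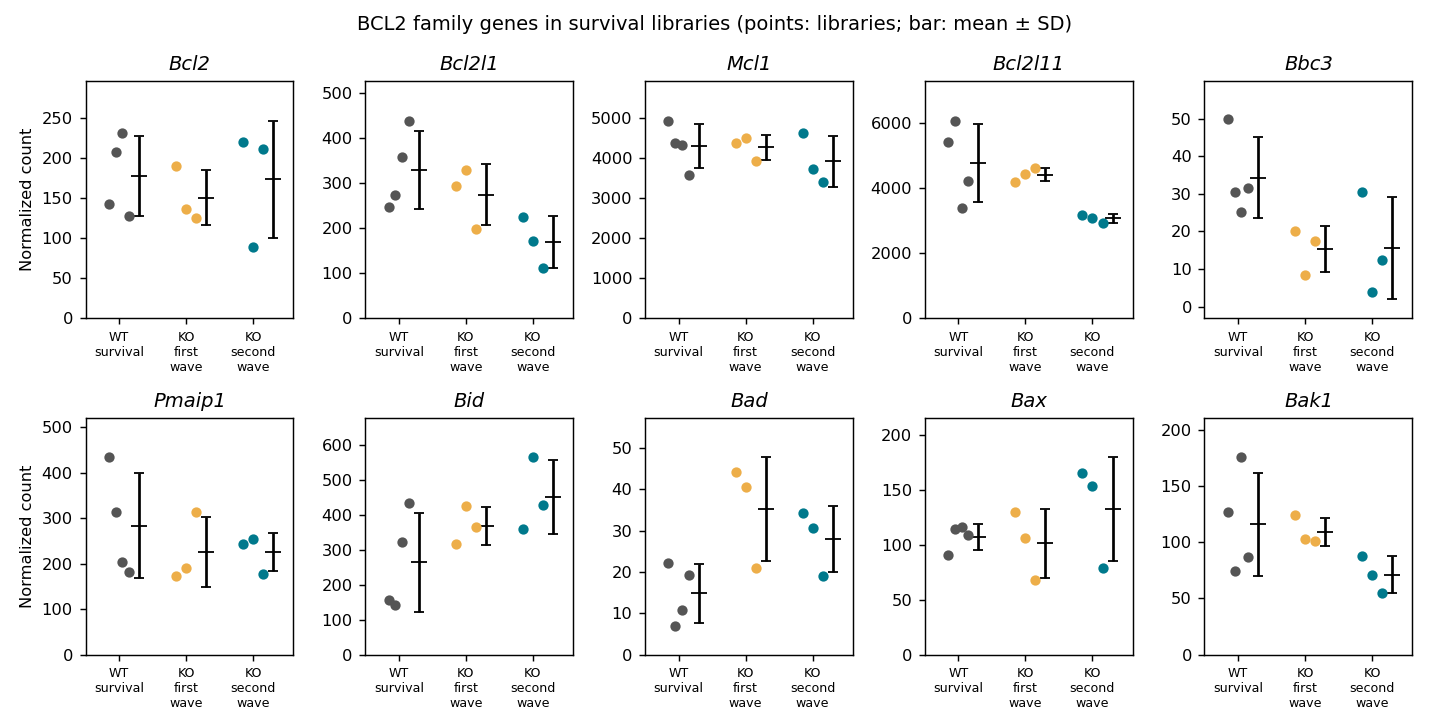
Normalized counts of the 10 genes in the survival libraries; each point is a library, in replicate order, and the bar beside it is the mean ± SD (WT n = 4, first wave n = 3, second wave n = 3). The second-wave points of Bcl2l1 (110.1 to 224) and Bcl2l11 (2911 to 3184) lie below all WT points, and WT replicates 1 and 2 differ from 3 and 4 for Bid and Bcl2l11.

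Bcl2l1 had 224, 170.2 and 110.1 normalized counts in second-wave replicates 1 to 3, 294, 329 and 197 in the first wave and 247, 274, 358 and 438 in WT survival. The second wave lay below WT without overlap, while the first wave overlapped both. The second-wave log2 fold change against WT was -0.99 (SE 0.30, 95% interval -1.63 to -0.34, adjusted p = 0.208). Without WT replicates 1 and 2 it was -1.29 (adjusted p = 0.317), and without second-wave replicate 1 it was -1.22 (adjusted p = 0.221). In the first wave it was -0.26 (SE 0.30, 95% interval -0.91 to 0.38, adjusted p = 0.807), and between the waves -0.72 (SE 0.32, adjusted p = 0.768).

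Bcl2 had 88.2 to 219.9 normalized counts in the second wave, 125 to 190.2 in the first and 127 to 231 in WT. Its log2 fold change was -0.10 (SE 0.35, 95% interval -0.86 to 0.66, adjusted p = 0.928) in the second wave and -0.21 (adjusted p = 0.873) in the first. Mcl1 had 3409 to 4637 in the second wave, 3932 to 4518 in the first and 3594 to 4948 in WT. All ranges of these guardians overlapped. The log2 fold change of Mcl1 was -0.14 (SE 0.16, 95% interval -0.47 to 0.20, adjusted p = 0.736) in the second wave and -0.0056 (95% interval -0.34 to 0.33, adjusted p = 0.994) in the first, the narrowest intervals of the family.

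Bcl2l11 had 3184, 3092 and 2911 normalized counts in the second wave, 4195, 4427 and 4605 in the first wave and 5429, 6078, 3381 and 4225 in WT survival. The second wave lay below both other groups, and the first wave lay within the WT range. Its 3 second-wave libraries spread by only 139 (SD, mean 3062), against an SD of 1207 among the WT libraries. The second-wave log2 fold change against WT was -0.61 (SE 0.18, 95% interval -0.996 to -0.216, adjusted p = 0.202). Without WT replicate 3 it was -0.76 and passed (adjusted p = 0.0419), and without WT replicates 1 and 2 it was -0.30 (adjusted p = 0.678). Without second-wave replicate 1 it was -0.63 (adjusted p = 0.360).

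Against the first wave, which does not draw on the WT libraries for its means, second-wave Bcl2l11 was at -0.53 (SE 0.19, 95% interval -0.94 to -0.11, adjusted p = 0.640), with every second-wave library below every first-wave library. The SE, interval and adjusted p still draw on the WT libraries, because all 10 survival libraries share a spread in the fit. The SD of Bcl2l11 was 1207 in WT survival, 206 in the first wave and 139 in the second. In that comparison 0 of 10 genes passed, where 0.119% of all genes did, 2 of 10 had an unadjusted p under 0.05 (6.34% of all genes) and 2 of 10 did not overlap (13.6% of all genes, 7.29% with the second wave lower, as here). The other of these was Bak1. The first-wave difference of Bcl2l11 from WT was -0.08 (SE 0.18, 95% interval -0.47 to 0.31, adjusted p = 0.913), and without WT replicates 1 and 2 it was 0.22.

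Bid had 359, 565 and 429 normalized counts in the second wave, 315, 425 and 364 in the first wave and 155, 142, 323 and 435 in WT survival. WT replicates 1 and 2 were below every KO library and replicates 3 and 4 among them. The log2 fold change was 0.90 (SE 0.35, 95% interval 0.15 to 1.66, adjusted p = 0.297) in the second wave and 0.63 (SE 0.35, 95% interval -0.12 to 1.38, adjusted p = 0.636) in the first. Without WT replicates 1 and 2 these became 0.24 (adjusted p = 0.858) and -0.037. The higher mean of Bid in KO thus rested on 2 WT libraries.

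Bbc3 had 20.0002, 8.39 and 17.4 normalized counts in the first wave, 30.5, 3.80 and 12.5 in the second and 49.999, 30.5, 25.2 and 31.5 in WT survival. The first wave lay below WT without overlap, and second-wave replicate 1 reached into the WT range. The log2 fold change was -1.16 (SE 0.67, 95% interval -2.59 to 0.28, adjusted p = 0.642) in the first wave and -1.43 (SE 0.67, 95% interval -2.86 to 0.0010, adjusted p = 0.385) in the second. Without second-wave replicate 1 the latter was -2.09 (adjusted p = 0.340). At these low levels the intervals span from near no change to a severalfold drop. Bad, also low, had 20.97 to 44.3 in the first wave, 19.0 to 34.3 in the second and 7.002 to 22.3 in WT. Its log2 fold change was 1.25 (SE 0.57, 95% interval 0.04 to 2.46, adjusted p = 0.617) in the first wave and 0.95 (SE 0.57, 95% interval -0.26 to 2.16, adjusted p = 0.495) in the second.

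Pmaip1 had 173 to 314 normalized counts in the first wave, 177 to 254 in the second and 434, 313, 204 and 183 in WT survival. WT replicates 1 and 2 were higher than replicates 3 and 4, and both waves overlapped WT. Its log2 fold change was -0.29 (SE 0.32, adjusted p = 0.802) in the first wave and -0.26 (SE 0.32, adjusted p = 0.759) in the second, and without WT replicates 1 and 2 these turned to 0.18 and 0.20.

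Of the effectors, Bak1 had 87.3, 71.2 and 54.9 normalized counts in the second wave, 124, 103 and 101 in the first and 127, 74.2, 175 and 87.1 in WT survival. The second wave was below the first without overlap (log2 fold change -0.63, SE 0.37, 95% interval -1.42 to 0.16, adjusted p = 0.880) and overlapped WT (-0.64, SE 0.35, adjusted p = 0.449). Against WT the first-wave value of Bak1 was -0.0079 (SE 0.35, adjusted p = 0.996). Bax had 78.4 to 165 in the second wave, 68.0 to 129.6 in the first and 90.4 to 116 in WT. The KO waves of Bax spread wider than WT to both sides, and its log2 fold change was 0.23 (SE 0.34, adjusted p = 0.797) in the second wave and -0.13 (SE 0.34, adjusted p = 0.926) in the first.

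**Figure D3:**
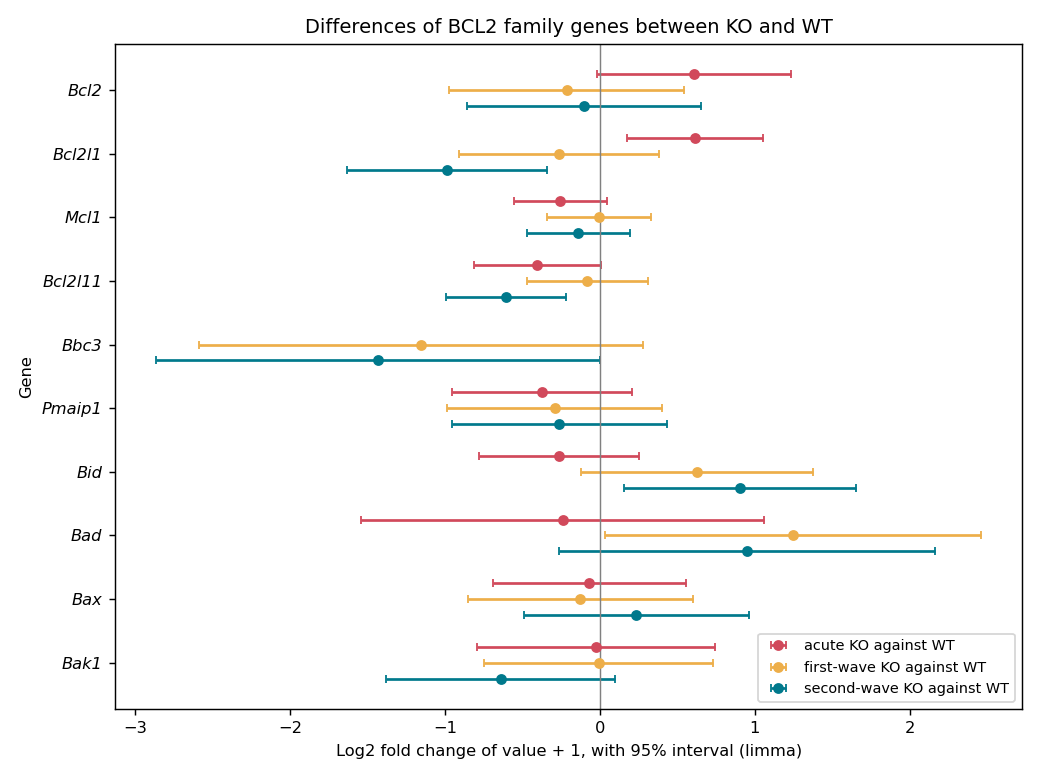
Log2 fold changes of value + 1 of the BCL2 family genes for acute, first-wave and second-wave KO against WT, with 95% intervals from limma. Bcl2l1 lies at 0.61 in the acute libraries and -0.99 in the second wave, and Bbc3 has no acute value because it was not tested there.

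With both waves averaged against WT, 0 of 10 genes passed, where 0.021% of all genes did. Before adjustment 5 of 10 had a p under 0.05 (12.9% of all genes), and the groups overlapped for each of the 10 (2.12% of all genes did not overlap). The 5 were Bid (0.77, adjusted p = 0.339), Bad (1.10, adjusted p = 0.370), Bbc3 (-1.29, adjusted p = 0.372), Bcl2l1 (-0.62, adjusted p = 0.350) and Bcl2l11 (-0.34, adjusted p = 0.376). Without WT replicates 1 and 2 the values of Bid and Bcl2l11 were 0.10 and -0.042, and those of Bad, Bbc3 and Bcl2l1 were 1.01, -1.06 and -0.93.

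WT survival replicates 1 and 2 differed from replicates 3 and 4 without overlap in 5 of the 10 genes, beside 51.8% of all genes tested. The pair had the higher Bcl2l11, Pmaip1 and Mcl1 and the lower Bid and Bcl2l1, at mean ratios of 1.51, 1.93, 1.18, 0.393 and 0.654. The 14 T-ALL and thymocyte markers summed to 0.667% and 0.770% of the counts in that pair, 1.15% and 1.16% in replicates 3 and 4, 1.11% to 1.37% in the first wave and 0.861% to 1.01% in the second. Neutrophil markers, 14 in the table, summed to 0.0179% and 0.0110% in the pair and 0.00296% to 0.00477% in the other 8 libraries, with up to 3 of the 14 listed at 0 in a library, and 0 of 12 tested passed in either wave. The 12 erythroid markers summed to 0.134% and 0.0908% in the pair, 0.344% and 0.321% in WT replicates 3 and 4, 0.0980% to 0.246% in the first wave and 0.114% to 0.462% in the second. Macrophage markers summed to 0.00929% and 0.00970% in the pair and 0.0233% and 0.0251% in WT replicates 3 and 4. Their share was 0.0181% to 0.0191% in the first wave and 0.0122% to 0.0386% in the second, highest in second-wave replicate 1, and 0 of 10 tested passed in either wave. In the second wave 1 of 10 B cell markers tested fell (summed share 0.00934% to 0.0163%, against 0.0168% to 0.0235% in WT). NK cell markers summed to 0.00343% to 0.00588% in the second wave, below the first wave (0.00668% to 0.00778%) and WT (0.00648% to 0.00917%). The most abundant of them, Gzma, had 319 to 529 normalized counts in the second wave, 603 to 747 in the first and 584 to 828 in WT. Klrb1c, the next, overlapped between all groups, and 0 of 3 NK markers tested passed in the second wave. Plasma cell markers summed to 0.00791% to 0.00901% in the second wave, below the first wave (0.0105% to 0.0125%) and overlapping WT (0.00865% to 0.0146%). The part of these shares in the differences of the family was not tested.

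Ratios between family members within a library do not depend on its scaling, and they are given as a description, chosen after the values were seen and without a test. The ratio of Bcl2l1 to Mcl1 was 0.118, 0.164, 0.136 and 0.135 in KO acute replicates 1 to 4 and 0.0919, 0.0641, 0.0732 and 0.0739 in WT acute. All 4 KO libraries were above all WT libraries, the pairs of KO replicates included. In the survival set it was 0.0484, 0.0456 and 0.0323 in the second wave, 0.0670, 0.0728 and 0.0502 in the first wave and 0.0498 to 0.122 in WT, so that the second wave lay below WT and the first wave within it. The ratio of the gene counts, which do not separate isoforms, was thus higher than WT in the acute KO libraries. In the second wave it was lower than WT by a narrow margin (at most 0.0484 against at least 0.0498). The ratios of Bcl2 to Mcl1 and of Bcl2 to Bcl2l1 overlapped WT in the acute KO libraries and in both waves. The share of all gene pairs whose ratios separate in this way was not counted.

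The ratio of Bcl2l11 to Bcl2l1, of the killer to a guardian, was 3.82, 2.92, 7.39 and 7.88 in KO acute replicates 1 to 4 and 8.04 to 12.7 in WT acute, again without overlap. In the survival set it was 13.5 to 23.3 in the first wave, 14.2 to 26.4 in the second and 9.46 to 22.2 in WT, all overlapping. The ratio of Bcl2l11 to Mcl1 was 0.450 and 0.478 in KO acute replicates 1 and 2, 1.01 and 1.07 in replicates 3 and 4 and 0.688 to 0.842 in WT acute. The KO acute pairs therefore lay on opposite sides of WT for that ratio.

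**Figure D4:**
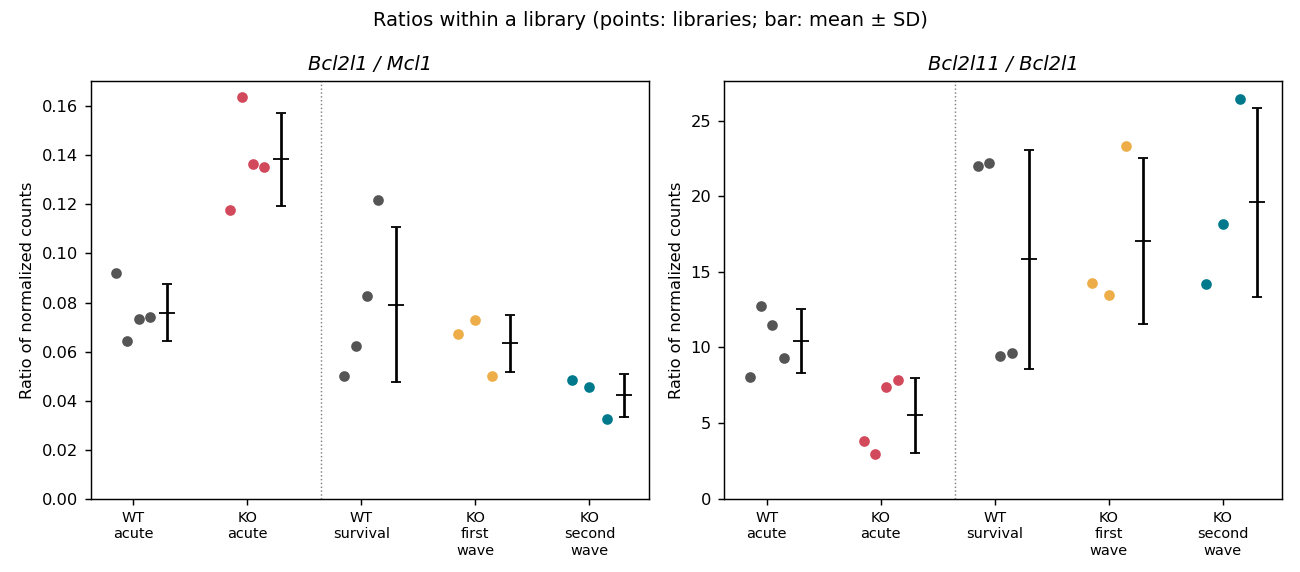
Ratios of normalized counts within each library, Bcl2l1 over Mcl1 (left) and Bcl2l11 over Bcl2l1 (right); points are libraries in replicate order, bars are mean ± SD, and the dotted line separates the acute from the survival table. The acute KO libraries lie above WT in the first ratio (0.118 to 0.164 against 0.0641 to 0.0919) and below WT in the second (2.92 to 7.88 against 8.04 to 12.7).

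The surrounding apoptosis machinery was described with 7 lists of 88 genes, of which 77 were tested in each table. In the acute libraries 2 of the 77 rose and 13 fell, beside 4.58% of all genes that rose and 8.07% that fell. Without KO replicates 1 and 2 these counts were 1 and 10, and after quantile normalization 4 and 8. In the list of apoptosome genes, caspases and mitochondrial channels 4 of 15 fell and 0 rose, with a median of -0.17. Vdac1, a voltage-dependent anion channel of the outer mitochondrial membrane to which family members bind, fell from 2510, 2781, 2541 and 2324 normalized counts in WT to 1333, 1158, 1284 and 1457 in KO. No KO value reached the WT range, with a log2 fold change of -0.96 (SE 0.11, adjusted p = 0.000790). Vdac3, another such channel, fell by 0.59 on the log2 scale.

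Of 11 partners that bind or turn over BIM, BAD and MCL1 proteins 4 fell and 0 rose, with a list median of -0.25. Dynll1, a dynein light chain that tethers BIM, fell from 604 to 726 normalized counts in WT to 249.8 to 336 in KO (log2 fold change -1.19, SE 0.15, adjusted p = 0.000955). Its level was less than that of any WT library in each KO library. Ywhaq and Ywhaz, 14-3-3 proteins that hold phosphorylated BAD, changed by -0.92 (SE 0.13) and -0.82 (SE 0.14), and Usp9x, which removes ubiquitin from MCL1, by -0.48 (SE 0.10; named after its value was seen).

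Of 14 genes of cytokine survival signalling 3 fell and 0 rose (median -0.14). Il7r, the receptor for interleukin 7 that sustains Bcl2 in T cells, fell from 1525, 1356, 1736 and 1559 normalized counts in WT to 472, 694, 752 and 1030.4 in KO. Every KO library was below WT (log2 fold change -1.11, SE 0.19, adjusted p = 0.00308). Cish, a feedback inhibitor induced by STAT5, was at -1.89 (SE 0.44, adjusted p = 0.0133) and Stat5a itself at -0.46 (SE 0.14, adjusted p = 0.0461).

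In the remaining lists single genes passed. Bnip3l, a mitophagy receptor related to the BH3-only proteins, changed by -0.57 (1 of 8 other family genes, list median -0.27). Xiap, the inhibitor of caspases, changed by -0.53 (1 of 7 inhibitors of apoptosis, median -0.11). Tnfrsf10b, the TRAIL death receptor, rose by 0.75 (1 of 11 death receptor genes, median 0.09), and Mdm4, an inhibitor of p53, by 0.65 (1 of 11 inducers of BH3-only genes and p53 core genes, median 0.26). The median over all genes was 0.03.

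**Figure D5:**
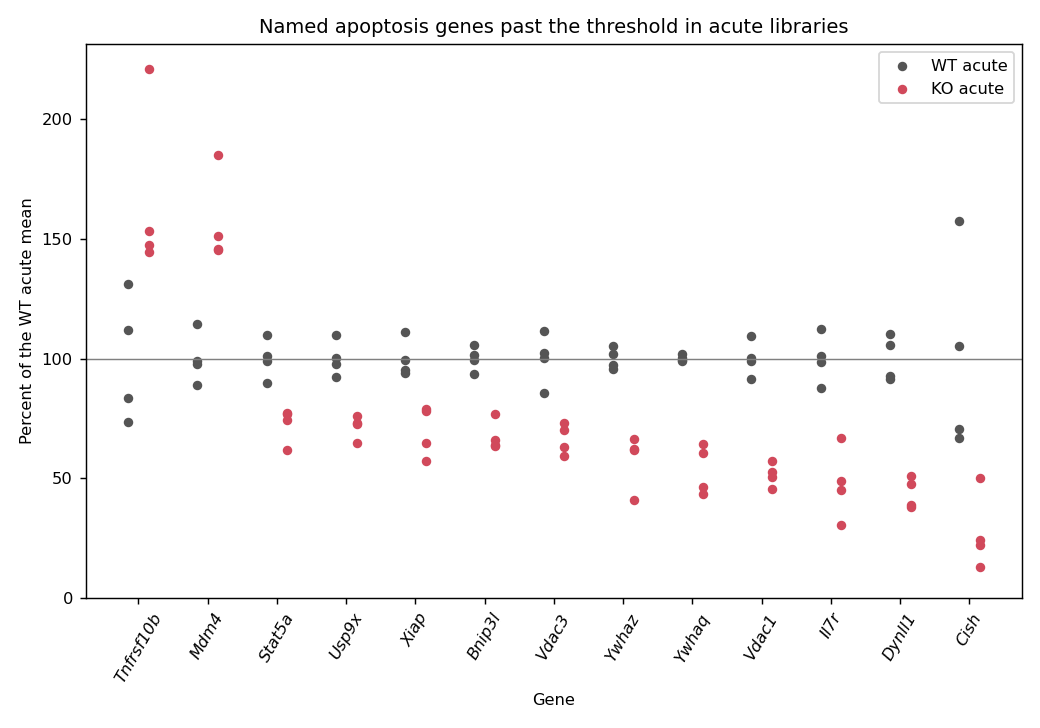
The 13 named genes of the 7 lists past the threshold in the acute libraries, ordered by log2 fold change; each point is a library, as percent of the mean of the WT acute libraries. No KO point overlaps the WT points of its gene, with Tnfrsf10b and Mdm4 above them and the other 11 genes below.

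How well the acute calls of the named genes held differed between them. Vdac1, Dynll1, Ywhaq, Ywhaz, Mdm4 and Il7r passed under all 18 alternatives, with a highest adjusted p of 0.0483 (Mdm4). Without KO replicates 1 and 2 the calls of Bnip3l, Xiap, Tnfrsf10b and Stat5a were lost, and removing trends with transcript length, GC and level ended those of Bnip3l, Vdac3 and Tnfrsf10b. The calls of Stat5a and Tnfrsf10b were lost under 12 and 10 of the 18 alternatives, each in 7 of the 8 fits that left out 1 library. Moderation without a trend (eBayes) ended the calls of Vdac3, Xiap, Tnfrsf10b, Usp9x and Stat5a. Quantile normalization ended the calls of Xiap, Usp9x and Stat5a, and that of Cish was lost without WT replicate 4 (highest adjusted p over the alternatives 0.0605).

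In the survival libraries 0 of the 77 genes passed in either wave, with 6 in the first and 8 in the second at an unadjusted p under 0.05, beside the 8.02% and 13% of all genes given above. The smallest adjusted p was 0.617 in the first wave and 0.151 in the second, for Ywhaq (log2 fold change 0.56). Dynll1 had a value of 1.06 in the second wave (adjusted p = 0.240), from 152, 248, 633 and 355 normalized counts in WT and 601 to 659 in the second wave. Its WT replicate 3 lay among the KO libraries, and its first-wave value was 1.09 (adjusted p = 0.617). Without WT replicates 1 and 2, the lowest libraries, the values of Dynll1 were 0.42 in the second wave and 0.45 in the first, and that of Ywhaq in the second wave was 0.48. Among the other family genes, Bcl2l2, the guardian BCL-W, had 159 to 305 in the second wave and 83.6 to 114 in the first, without overlap (log2 fold change 1.24, SE 0.33, adjusted p = 0.334). These survival genes were named after their values were seen.

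The genes whose values followed Bcl2l1 most closely over the 8 acute libraries, among 7877 genes with a mean of at least 100, were Etv6, Zfyve26 and Safb2 (Pearson r 0.98, 0.97 and 0.97). Over the 10 survival libraries and 8325 genes, Bcl2l11 was followed most closely by Tsc22d3, Tnfsf11 and Hbp1 (r 0.94 for each). These coefficients describe libraries that share group, depth and scaling.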

How the data were processed

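RNA was measured in 18 libraries. The authors deposited 2 tables of signal values, one per set: the files name them DESeq-normalized counts, and the submitters' processing notes list kallisto 0.44.0, DESeq and GRCm38. The sources used here do not give the DESeq version, annotation, gene filter, strand setting or deleted exons. Between 21.0% and 63.0% of values under 8 were whole multiples (within 0.02) of each library's smallest step, so the reads could not be recovered as whole numbers and no count model was run. The steps gave a depth estimate of 6.12 to 12.7 M reads, which sets counting error only.

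From these values log2(value + 1) was computed. Genes with a mean of at least 10 in a table were fitted with limma 3.58.1 in R 4.3.3 (lmFit, eBayes with trend), the acute table with its 8 libraries and the survival table with all 10. Fold changes on that scale understate the change of low genes. Adjusted p-values are Benjamini-Hochberg values across every gene tested, with a threshold of 0.05, and the procedure was tested on simulated data. Levels per kilobase used median transcript lengths of GENCODE M21.

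The members and lists were chosen with earlier results of these data known. The text names Acly, the 10 members, up to 3 genes of each list with the smallest adjusted p in each direction among those past the threshold, the 2 most abundant markers of a list and the 3 genes most like the leading member; others are marked, and some genes that the rule names are not reported here. Lists of B cell, macrophage, dendritic, plasma, NK, platelet and stromal markers were also summed. Samples with the same number did not deviate together (correlations -0.029 to 0.095), so no pairing was used. No libraries of a group were identical (chi-square per gene 11.4 or more). The alternatives were other pseudocounts, filters, scalings and eBayes settings, a replicate block, removal of trends with length, GC content and level, the compared groups alone, and leaving out libraries. Those for the genes of the apoptosis lists were chosen after seeing the data.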

Additional observations from a re-analysis of the deposited data

Results flagged for a closer look

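Some single libraries lay far from the rest of their group by Dixon's criterion, which chance alone meets in about 1 of 20 groups; 75 groups were examined. Bbc3 was listed at 0 in KO acute replicate 1, beside 12.1 to 13.2 normalized counts in the other 3 KO acute libraries. Tnfrsf10b had 391 normalized counts in KO acute replicate 2, beside 255.9 to 271 in the others, and 229 in WT survival replicate 3, beside 321 to 336. Mdm4 had 6510.0 in KO acute replicate 2, beside 5109 to 5318.

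For 4 genes every acute KO library lay on one side of WT and every KO library of a wave on the other side. They are members or genes of the apoptosis lists. Groups without overlap were common among all genes: 19% in the acute comparison, 8% in the first wave and 9.66% in the second. The share of all genes that lay on opposite sides in this way was not counted, so these 4 cannot be set against it. Bcl2l1 had log2 fold changes of 0.61 in the acute libraries and -0.99 in the second wave. Vdac1 had -0.96 in the acute libraries and 0.43 in the first wave. Tnfrsf10b had 0.75 in the acute libraries and -0.67 in the first wave. Ywhaq had -0.92 in the acute libraries and 0.56 in the second wave. The tables were normalized separately, and these differences between acute and survival effects were not tested.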

How the results depend on the processing

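Of 983 values of the 10 genes under 18 acute and up to 21 survival alternatives, 938 kept their direction and side of the threshold, 44 changed sign and 1 passed. The count of family genes past the threshold was 0 under each alternative, except the second wave, where leaving out 1 library gave 0 to 1. With the replicate block it was 0 in all 5 comparisons, Bcl2l11 acute had an adjusted p of 0.0722 and Bcl2l1 acute 0.120, and 1391 acute and 2 wave-to-wave genes passed. Without KO acute replicates 1 and 2, Bak1 turned to 0.18. Without WT survival replicates 1 and 2, the first wave turned for Mcl1 (0.12), Bcl2l11 (0.22), Pmaip1 (0.18) and Bid (-0.037), the second for Pmaip1 (0.20) and both waves for Mcl1 (0.049), Pmaip1 (0.19) and Bax (-0.019); with the trend removed Bax was at -0.0060. The cause was not tested. With 1 library left out, acute Bad ran from -0.65 to 0.27, Bax from -0.25 to 0.045 and Bak1 from -0.32 to 0.15. First-wave Mcl1 ran from -0.090 to 0.063, Bcl2l11 from -0.23 to 0.047, Bax from -0.33 to 0.13 and Bak1 from -0.19 to 0.22. Second-wave Bcl2 ran from -0.33 to 0.33. Between waves Bcl2 ran from -0.11 to 0.54, Bbc3 from -0.93 to 0.43 and Pmaip1 from -0.13 to 0.29, and over both waves Bcl2 from -0.30 to 0.056 and Bax from -0.046 to 0.22. Over all alternatives the genes past the threshold numbered 693 to 1916 (acute, 1794), 0 to 3 (first wave, 0), 13 to 140 (second, 32), 1 to 38 (between waves, 17) and 2 to 155 (both waves, 3). The depth limits Bbc3 and Bad most, the genes with the fewest reads.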
